A study of Mus musculus with 3 samples.

Results

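The dentate gyrus (DG) was described here from 239 Visium spots of 8549, those that the authors labelled DG in 3 coronal sections of mouse brain. The authors had assigned clusters of spots to areas by marker genes, the stained images and the Allen atlas. How far the measures reported below shaped these clusters is not stated, and spots were chosen here by the label alone. The CON section held 69 of the DG spots, RES 84 and SUS 86. The mice were male C57BL/6J, 8 weeks old, and each section was cut 10 μm thick from the left side of the brain of 1 mouse, 1.5 h after the last exposure. The CON mouse had met a non-aggressive mouse each day, whereas the other mice had been exposed for 10 days to chronic social defeat stress (CSDS) by aggressive CD-1 mice. RES (resilient) and SUS (susceptible) mice were told apart by the time spent near an unfamiliar mouse in a social interaction test. With 1 section per condition, differences between conditions have no replicate error and were not tested, so each ratio below stands for the sections named in it.

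The dentate gyrus is the first relay of the classical hippocampal circuit. Its granule cells are packed side by side in a thin, folded layer, their dendrites fill the molecular layer outside the fold, and the hilus lies inside it. Granule cell axons, the mossy fibres, run through the hilus to CA3, and CA3 neurons project on to CA1. The molecular layer holds many dendrites and synapses and few cell bodies, and the zone below the granule cells is a site where new neurons arise in the adult mouse.

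A Visium spot is a printed patch of capture probes, and it reads out whatever cells, or parts of several cells, lie on it. Captured molecules are counted by unique molecular identifiers (UMIs). The deposited table listed for each spot its UMIs, its detected genes (1 UMI or more) and percentages for 3 gene classes, which are mitochondrial genes, ribosomal protein genes and genes of red blood cells. Multiplied by the deposited UMIs, the mitochondrial percentage gave a whole number, within 0.05, in only 20 of the 239 DG spots. The percentages therefore refer to another total, which may hold molecules that the deposited UMIs leave out, and they are compared here only as percentages. Fewer cells in a spot and less RNA per cell cannot be told apart from these values. Counts per gene were not analysed here, so the label was checked only by the place of its spots and not by granule cell markers. Summed over DG spots, CON gave 1037450 UMIs, RES 1251345 and SUS 1138927. The median over all spots of the section was 12912 UMIs for CON, 10054.5 for RES and 10947.5 for SUS. Medians are given with 95% order-statistic intervals in parentheses, shares with exact (Clopper-Pearson) intervals, and ratios of medians with the interval that these bounds allow. These intervals treat spots as independent, cover counting error within a section only, and are too narrow where adjacent spots resemble each other.

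In every section the DG spots formed 1 connected patch on the hexagonal grid of the slide. The patch spanned 8 grid rows in CON, 10 in RES and 8 in SUS. Each DG spot had 6 listed neighbours, and 80.2%, 80.2% and 81.4% of these neighbour places were DG themselves in CON, RES and SUS. The other neighbours carried only the labels CA1, CA3, TH (thalamus) and D3V (a ventricle), the areas that border the dentate gyrus in the atlas. The place of the spots therefore did not go against the label. DG took 24.7% (19.8 to 30.2) of the CON section's hippocampal spots, which are DG, CA1 and CA3 together. The share was 31.0% (25.5 to 36.9) for RES and 31.5% (26.04 to 37.4) for SUS, and the 3 intervals overlap. Some barcodes, which name places on the slide, carried a DG spot in more than 1 section, namely 52 in CON and RES, 18 in CON and SUS, and 36 in RES and SUS.

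The dentate gyrus was not one uniform area. UMI-rich spots with a low mitochondrial percentage lay next to each other, and most UMI-poor spots with a high mitochondrial percentage lay beside another area. In the RES section the 84 spots ran from 4860 to 48335 UMIs, a 9.95-fold range. The 86 SUS spots ran from 3459 to 43171 UMIs, a 12.5-fold range, and the 69 CON spots from 5958 to 27316 UMIs, a 4.58-fold range. DG spots were ranked by UMIs and divided into 4 equal groups per section. The richest group of 21 RES spots held 50.8% of all DG UMIs of that section, against 46.9% for 22 SUS spots and 37.3% for 17 CON spots. In SUS these 22 spots formed 1 patch. In RES the 21 richest spots formed 2 patches, the larger with 13 spots, while the 17 richest CON spots formed 4 patches, the largest with 9 spots. Beside another area lay 4 of the 22 richest SUS spots, 6 of the 21 richest RES spots and 9 of the 17 richest CON spots, against 14 of 22, 16 of 21 and 16 of 18 of the poorest. Over all DG spots the counts were 45 of 86 in SUS, 47 of 84 in RES and 38 of 69 in CON, so the richest CON spots were near the share of their section.

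**Figure D1:**
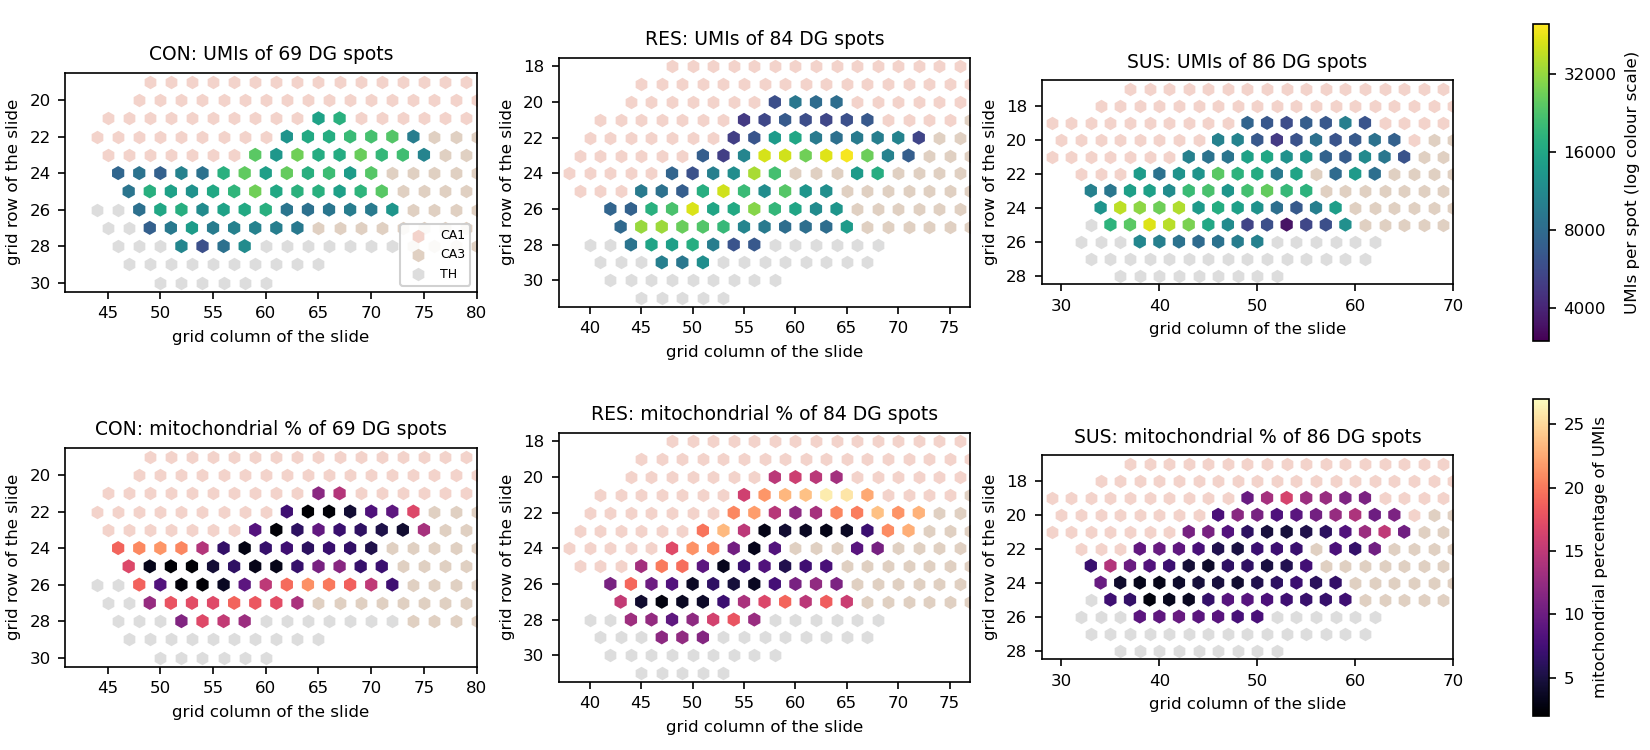
Maps of the DG spots at their grid row and column on the slide, 1 column of panels per section (CON, RES, SUS), coloured by UMIs per spot on a log scale (top) and by mitochondrial percentage (bottom), with CA1, CA3 and thalamus (TH) spots in pale colours. The 21 richest RES spots lie in 2 patches and the 22 richest SUS spots in 1, some of them beside another area, and their mitochondrial percentages are low.

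Neighbouring DG spots resembled each other in depth. Over DG spots, log2 UMIs of a spot and the mean of its DG neighbours had a Pearson r of 0.684 in CON (69 spots), 0.740 in RES (84 spots) and 0.733 in SUS (86 spots). For the mitochondrial percentage r was 0.597, 0.745 and 0.705. These correlations are descriptions, since the spots share a section and a spot serves as neighbour of several others. The ribosomal protein percentage had less of such a pattern, with r of 0.555 in CON, 0.311 in SUS and -0.0236 in RES.

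Spots whose 6 neighbours were all DG, called inner spots here, were deeper than spots beside another area. The median of the 37 inner RES spots was 15901 UMIs, against 8896 for the 47 border spots, a ratio of 1.79 (1.18 to 2.55). In the SUS section the 41 inner spots had a median of 14675 UMIs and the 45 border spots 9149, a ratio of 1.60 (1.12 to 2.22). In the CON section the ratio was 1.61 (0.975 to 1.90), with 16933 UMIs over 31 inner and 10488 over 38 border spots, and its interval includes 1. The mitochondrial percentage went the other way in all 3 sections. Inner spots had 0.490 (0.265 to 0.996) of the border value in CON, 0.598 (0.393 to 0.964) in RES and 0.689 (0.497 to 0.903) in SUS. The ribosomal protein percentage was nearly the same inside and at the border, with ratios from 1.02 to 1.04 whose intervals all include 1.

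The profile across the border with CA1 showed this in more detail. In the RES section the 20 DG spots beside CA1 had a median of 7043 UMIs (5870 to 8195), little different from the 7441 UMIs (6461 to 7779) of the 21 CA1 spots beside DG. A step deeper the DG median was 9980 UMIs (6877 to 17476), and at 3 steps it was 26165 UMIs (15704 to 40915, 17 spots). The mitochondrial percentage was 15.2% (13.8 to 16.5) in these CA1 spots, and over the DG steps it was 19.9% (15.8 to 21.5), 19.5% (10.1 to 21.9) and 4.33% (3.27 to 10.7). The intervals of the spots beside CA1 and of those 3 steps in did not overlap for either measure. Beyond that, at 5 steps from CA1, RES spots were back at 11957 UMIs (9198 to 19304) and 11.5% mitochondrial (7.27 to 16.8).

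The SUS section had the same order with smaller steps. DG spots beside CA1 had 8749 UMIs (6890 to 10246), those 2 steps in 11537 (6562 to 15022) and those 3 steps in 16111 (13136 to 22240). Their mitochondrial percentages were 10.7% (9.73 to 11.8), 8.40% (6.29 to 10.7) and 5.41% (4.67 to 6.65), and the intervals of the first and the last did not overlap for either measure. The CA1 spots beside DG had 8331 UMIs and 9.49% mitochondrial, close to the DG spots across the border.

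In the CON section the medians changed at the border itself. Its 17 DG spots beside CA1 already had 15246 UMIs (9793 to 20138) and 9.11% mitochondrial (6.55 to 16.9), and the 18 CA1 spots across the border had 8311.5 UMIs (6654 to 10735) and 19.3% (17.3 to 20.7). The intervals across the border overlapped for UMIs but not for the mitochondrial percentage. At 4 steps from CA1 the CON DG spots had 10229 UMIs (8974 to 17972) and 17.3% mitochondrial (10.7 to 18.8). Below 11000 UMIs and above 10% mitochondrial, limits chosen after the data were seen, lay 6 of the 17 CON spots on the DG side of this border, 20 of 20 in RES and 13 of 20 in SUS. On the CA1 side the counts were 14 of 18, 20 of 21 and 4 of 21. On the thalamus side the CON section did have such spots under the DG label, since its 11 DG spots that touch TH had 9350 UMIs and 16.9% mitochondrial. A difference in where the label was drawn and a difference in the tissue cannot be told apart, and the DG ratios between sections are also given below for narrower and wider limits of the area, without the DG spots that adjoin CA1 and with the CA1 spots that adjoin DG.

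**Figure D2:**
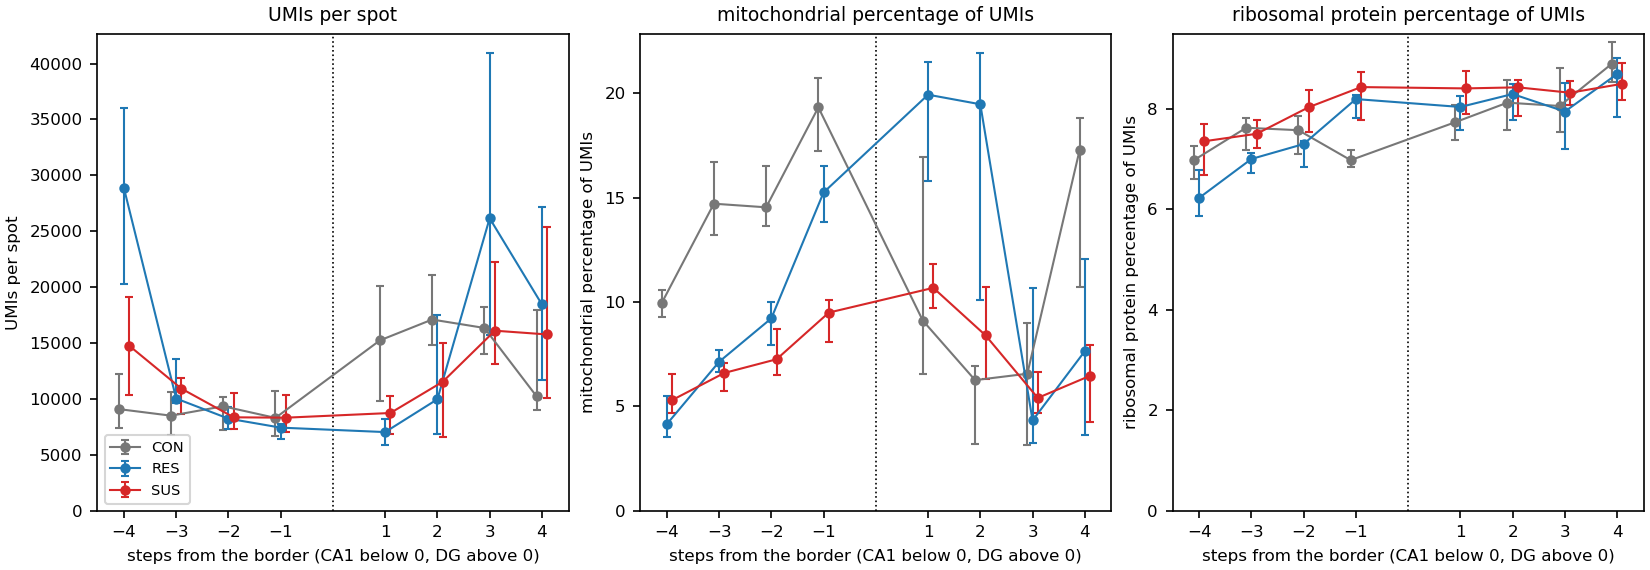
Median UMIs, mitochondrial percentage and ribosomal protein percentage by steps from the border between CA1 (below 0) and DG (above 0) in the 3 sections, with 95% order-statistic intervals over spots. In RES and SUS the median UMIs of DG spots beside CA1 are close to those of the CA1 spots across the border and the change comes 2 to 3 steps inside DG, whereas in CON the medians change at the border itself.

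UMIs and mitochondrial percentage were coupled from spot to spot. Spearman's rho between the measures was -0.667 over the 69 CON spots, -0.876 over the 84 RES spots and -0.671 over the 86 SUS spots. The 21 shallowest RES spots had a median of 21.3% mitochondrial and the 21 deepest 3.95%. For the lowest and highest of the 4 depth groups the medians were 17.5% and 6.37% in CON, and 9.31% and 4.95% in SUS. The deepest RES spot, with 48335 UMIs and 8418 genes, had 3.67% mitochondrial, and the spot with the highest percentage, 26.04%, had 5474 UMIs and 2724 genes. In SUS the spot with most UMIs, 43171, was also the one with the lowest mitochondrial percentage, 2.62%. In CON the lowest percentage, 2.09%, was in a spot of 16463 UMIs, while the deepest CON spot, of 27316 UMIs, had 3.10%. Percentages and UMIs come from the same libraries. If the deposited UMIs leave out mitochondrial molecules, part of this coupling is built in. With those molecules added back (UMIs divided by 1 minus the mitochondrial fraction, an alternative chosen after the data were seen), rho was -0.589 in CON, -0.837 in RES and -0.643 in SUS. The depth ratio of inner to border spots was then 1.43 (0.988 to 1.73), 1.68 (1.01 to 2.32) and 1.45 (1.12 to 2.10).

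**Figure D3:**
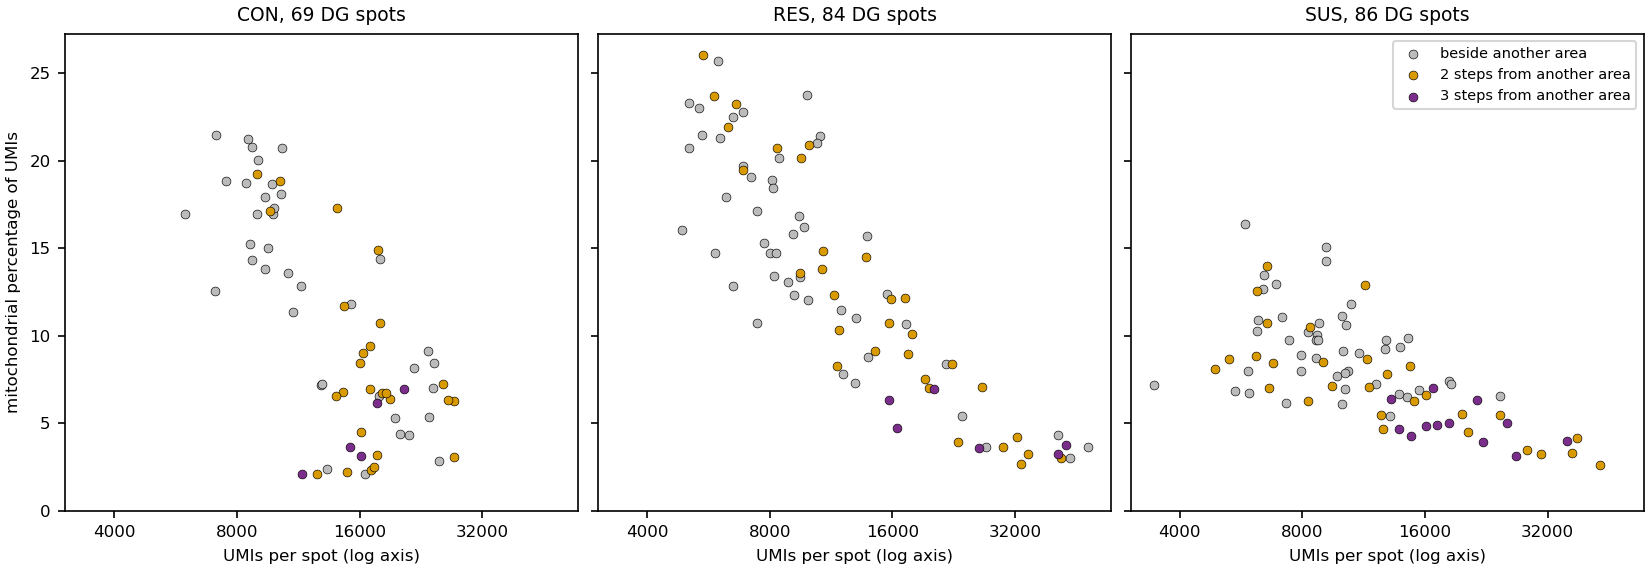
Mitochondrial percentage against UMIs per spot (log axis) for every DG spot of the 3 sections, coloured by the number of steps to another area. Spots 3 steps inside lie in the lower part of each panel, and the shallow spots reach 26.04% in RES but no more than 16.4% in SUS.

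Between sections the DG depth differed in level and in spread. The median DG spot had 14869 UMIs (11550 to 17018) in CON, 10679 (9457 to 13826) in RES and 10455 (9149 to 12821) in SUS. The ratio to CON was 0.718 (0.556 to 1.20) for RES and 0.703 (0.538 to 1.11) for SUS, and both intervals include 1. At the 10th percentile the ratios were 0.691 (0.543 to 0.936) and 0.714 (0.585 to 0.930), which exclude 1. At the 90th percentile RES stood at 1.33 (0.849 to 2.12) of CON and SUS at 1.03 (0.680 to 1.77). Means hid most of this, with 15036 ± 5647 UMIs for CON, 14897 ± 10537 for RES and 13243 ± 8069 for SUS (SD over spots). The coefficient of variation was 37.6% in CON, 70.7% in RES and 60.9% in SUS. Without the DG spots that adjoin CA1, RES stood at 0.937 (0.636 to 1.50) and SUS at 0.849 (0.589 to 1.28) of CON. With the CA1 spots that adjoin DG added, the ratios were 0.741 (0.531 to 1.06) and 0.783 (0.586 to 1.11). Over all spots of a section, not DG alone, the RES median stood at 0.779 of CON and the SUS median at 0.848.

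The number of genes per DG spot followed the UMIs, with rho of 0.998 in CON, 0.999 in RES and 0.998 in SUS. The medians were 5262 genes (4651 to 5627) in CON, 4231.5 (3937 to 4903) in RES and 4291 (3898 to 4797) in SUS. Relative to CON, RES had 0.804 and SUS 0.815 of the genes, 0.938 and 0.902 within the narrower limits, and 0.815 and 0.867 within the wider ones. Spots were also matched within 10% of their UMIs. At matched UMIs, 71 of the 84 RES spots could be compared with CON and had 0.983 (0.977 to 0.986) of its genes. For 78 of the 86 SUS spots the ratio was 0.997 (0.990 to 1.004), an interval that includes 1. Against RES, SUS spots had 1.02 (1.01 to 1.03) of the genes at matched UMIs. A plain window of 10000 to 15000 UMIs, with no further matching within it, gave 0.945 for RES over 15 RES and 16 CON spots.

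The mitochondrial percentage varied more within the dentate gyrus than within most other areas. Its interquartile range was 10.7 percentage points in CON and 11.4 in RES, in both the widest of the 17 areas, and 3.60 in SUS, where DG ranked 4. The medians were 8.46% (6.77 to 12.9) in CON, 12.9% (10.7 to 14.8) in RES and 7.76% (6.93 to 8.67) in SUS. DG had the highest median of the 17 areas in RES, and ranked 13 in CON and 5 in SUS. The SUS median was 0.600 (0.467 to 0.807) of that in RES.

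The section difference lay in the upper part of the distribution. Above 15% mitochondrial were 20 of 69 CON spots (29.0%, 18.7 to 41.2), 32 of 84 RES spots (38.1%, 27.7 to 49.3) and 2 of 86 SUS spots (2.33%, 0.283 to 8.15). Below 5% were 15 CON, 14 RES and 14 SUS spots, with overlapping intervals of the shares. At the 75th percentile SUS had 0.577 (0.474 to 0.834) of CON, and at the 10th percentile 1.59 (0.762 to 2.36). At matched UMIs, RES had 1.08 (0.981 to 1.21) of the CON percentage and SUS 0.693 (0.608 to 0.786), and SUS had 0.622 (0.571 to 0.668) of RES. The SUS section as a whole was also lower, with a median over all its spots at 0.767 of CON and 0.833 of RES, and the RES section stood at 0.920 of CON. Divided by the median of its section, DG was at 1.66 of CON in the RES section, and SUS was at 1.20, on the other side of 1 from the undivided 0.917. Without the DG spots that adjoin CA1, the ratio to CON was 1.39 (0.651 to 1.91) for RES and 0.887 (0.490 to 1.15) for SUS. With the CA1 spots that adjoin DG added, it was 1.10 (0.777 to 1.81) and 0.643 (0.467 to 1.06).

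The ribosomal protein percentage was the steadiest measure of the dentate gyrus. Ribosomal protein genes encode the parts of the ribosome and are transcribed in all cells. The median was 8.18% (7.87 to 8.55) in CON, 8.29% (8.04 to 8.40) in RES and 8.45% (8.29 to 8.55) in SUS. RES stood at 1.01 (0.941 to 1.07) and SUS at 1.03 (0.970 to 1.09) of CON, and at matched UMIs they stood at 0.999 and 1.002. The narrower limits gave 0.984 and 0.997, and the wider ones 1.05 (0.976 to 1.10) for RES and 1.07 (1.004 to 1.12) for SUS, the latter interval excluding 1. The coefficient of variation over spots was 9.47% for CON, 7.50% for RES and 6.99% for SUS. The interquartile range was 1.20, 0.903 and 0.777 percentage points in CON, RES and SUS, which ranked 9, 12 and 16 of the 17 areas (rank 1 the widest). By its median DG ranked 4, 4 and 3 of the 17 areas in CON, RES and SUS.

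The ribosomal protein percentage had a higher median in the dentate gyrus than in CA1 and CA3 in each section. Against CA1 the ratio was 1.17 (1.11 to 1.25) in CON, 1.15 (1.10 to 1.19) in RES and 1.08 (1.03 to 1.13) in SUS. Against CA3 it was 1.22 (1.10 to 1.33), 1.20 (1.14 to 1.26) and 1.20 (1.14 to 1.27). All 69 CON spots, 83 of 84 RES spots and 85 of 86 SUS spots lay above the CA3 median of their section. Above the CA1 median lay 65 of 69, 78 of 84 and 72 of 86. Directly across the border with CA1 the medians were 7.74% in DG and 6.98% in CA1 for CON. They were 8.04% and 8.20% for RES, and 8.41% and 8.44% for SUS, so DG was not higher there in these sections. Over the 3 sections the geometric mean was 1.13 against CA1 and 1.21 against CA3, higher in DG in 3 of 3 sections, each with p = 0.25 by an exact sign-flip permutation test (two-sided). With 3 sections 0.25 is the smallest p this test can give, so no comparison with CA1 or CA3 could pass 0.05.

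**Figure D4:**
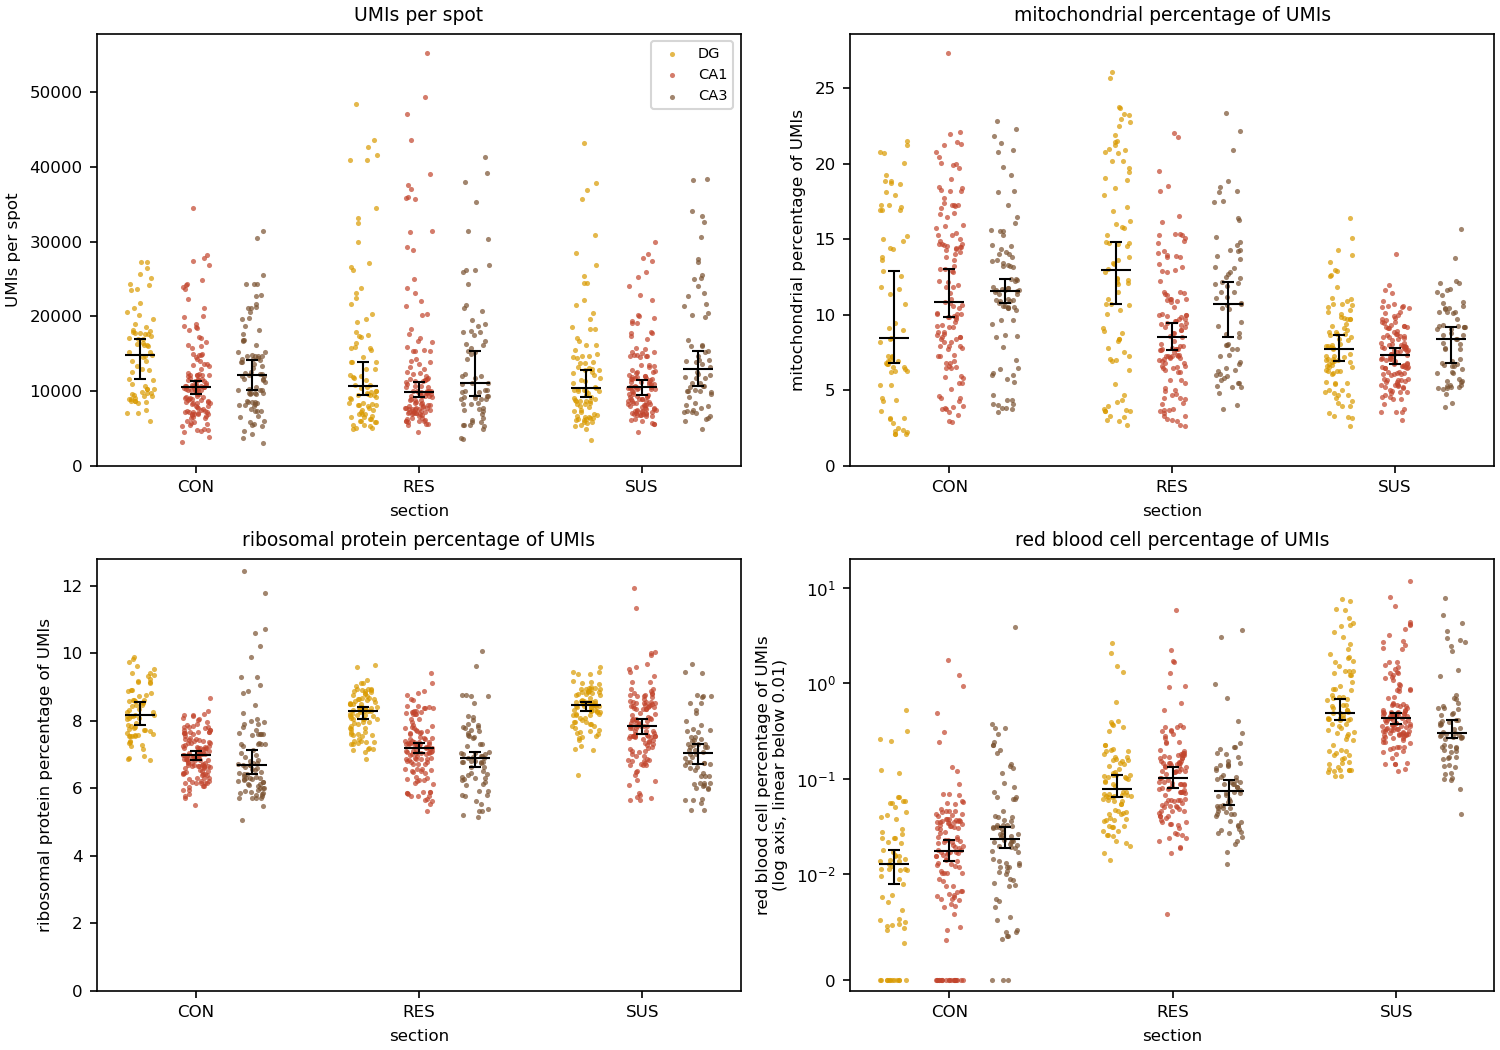
UMIs, mitochondrial, ribosomal protein and red blood cell percentages of every DG, CA1 and CA3 spot by section, with the median and its 95% order-statistic interval in black, and the red blood cell axis logarithmic above 0.01. The median ribosomal protein percentage is higher in DG than in CA1 and CA3 in each section, and the median red blood cell percentage is lowest in CON and highest in SUS in all 3 areas.

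The gap in ribosomal protein percentage was widest among the deepest spots. In CA1 the percentage was lower at higher UMIs, with rho of -0.433 in CON (126 spots), -0.660 in RES (119 spots) and -0.652 in SUS (123 spots). In CA3 rho was -0.736 (84 spots), -0.750 (68 spots) and -0.745 (64 spots). In DG it was only -0.290, -0.114 and -0.178. Spots were therefore also split at 8000 and 16000 UMIs, limits chosen after the data were seen. Among spots with 16000 UMIs or more, the DG median was 8.12% (7.69 to 8.45, 32 spots) in CON, 7.89% (7.36 to 8.39, 25 spots) in RES and 8.29% (7.85 to 8.68, 21 spots) in SUS. CA1 spots of this depth had 6.40% (6.16 to 6.66), 6.02% (5.84 to 6.57) and 6.61% (5.86 to 6.81), and CA3 spots 5.98% (5.78 to 6.27), 6.01% (5.61 to 6.44) and 6.14% (5.99 to 6.46). The DG interval lay above both others in each section.

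Between 8000 and 16000 UMIs the DG interval also lay above both others in each section, with DG medians of 8.42% (7.78 to 8.72), 8.49% (8.27 to 8.72) and 8.39% (8.18 to 8.62) in CON, RES and SUS. The CA1 medians of this class were 7.04% (6.88 to 7.35), 7.26% (7.07 to 7.36) and 7.81% (7.56 to 8.04), and those of CA3 6.70% (6.49 to 7.14), 7.02% (6.82 to 7.69) and 7.27% (7.02 to 7.69). Below 8000 UMIs the separation from CA1 was seen in CON but not in RES or SUS. The 23 SUS DG spots had 8.53% (8.44 to 8.75) and the 31 CA1 spots 8.52% (8.18 to 8.80). In RES the 22 DG spots had 8.11% (7.62 to 8.38) and the 36 CA1 spots 7.89% (7.37 to 8.26). CON had 4 DG spots below 8000 UMIs, from 8.32% to 9.88%, against 7.18% (6.99 to 7.42) over 34 CA1 spots and 8.87% (7.60 to 10.6) over 15 CA3 spots. CA3 spots below 8000 UMIs had 7.55% (7.05 to 8.72, 16 spots) in RES and 7.93% (7.32 to 8.53, 12 spots) in SUS, with intervals that overlap those of DG. DG spots of any depth were also matched within 10% of their UMIs, and a few had no match. In CA1 81 of 86 SUS spots had one, and in CA3 83 of 84 RES and 84 of 86 SUS spots. The ratio to CA1 was then 1.19 (1.16 to 1.26), 1.17 (1.13 to 1.20) and 1.06 (1.03 to 1.11) in CON, RES and SUS, and to CA3 1.27 (1.22 to 1.31), 1.20 (1.15 to 1.25) and 1.15 (1.09 to 1.21).

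**Figure D5:**
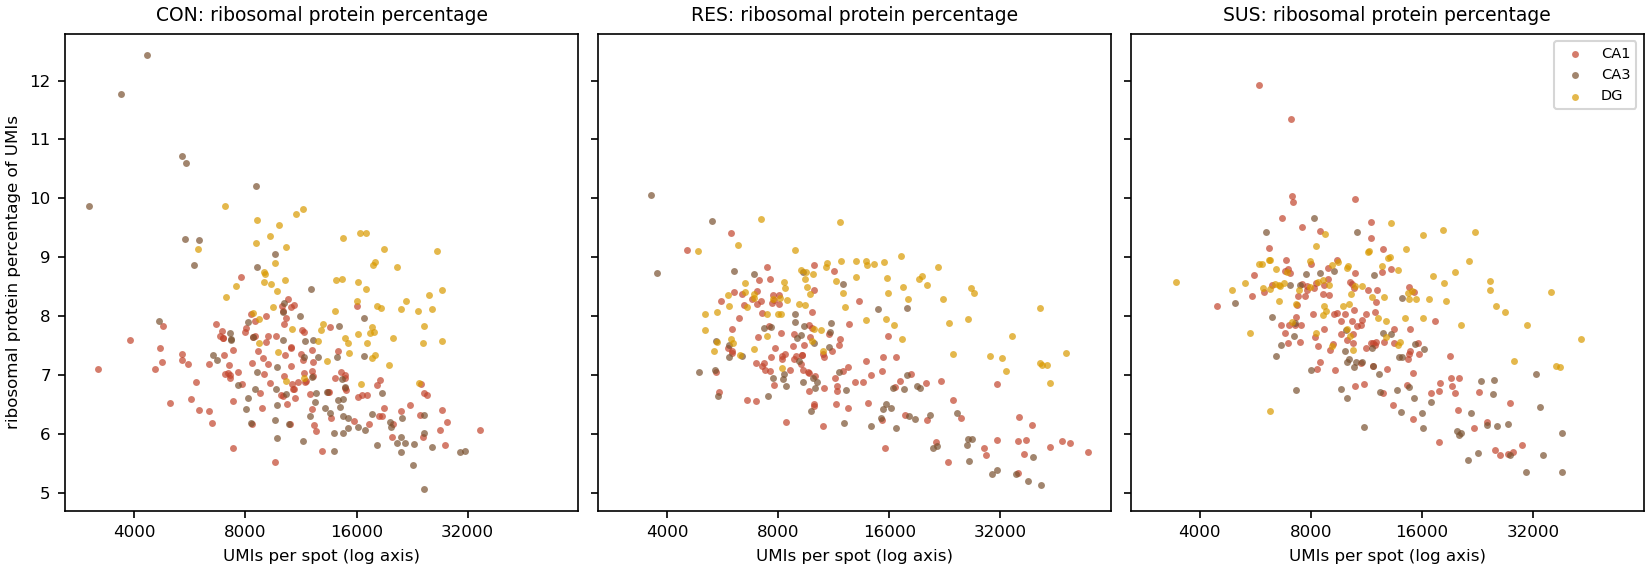
Ribosomal protein percentage against UMIs per spot (log axis) for DG, CA1 and CA3 spots of the 3 sections, 1 point per spot. CA1 and CA3 fall towards high UMIs (rho from -0.433 to -0.750), DG stays nearly level (rho from -0.290 to -0.114), and from 8000 UMIs upwards the DG medians are above those of CA1 and CA3, although single spots of the areas overlap.

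DG spots had slightly more genes than CA1 and CA3 spots of the same depth. At matched UMIs the ratio to CA1 was 1.02 (1.01 to 1.03) in CON, 1.02 (1.01 to 1.03) in RES and 1.02 (1.02 to 1.03) in SUS. The ratio to CA3 was 1.04 (1.03 to 1.05), 1.04 (1.03 to 1.05) and 1.04 (1.03 to 1.05). The order was the same in 3 of 3 sections, with p = 0.25 for both areas by the exact sign-flip permutation test. The SD of the log2 ratio between sections was 0.0024 against CA1 and 0.0036 against CA3, small beside the mean log2 ratios of 0.032 and 0.057.

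The comparison of total depth with CA1 and CA3 depended on the spots and the average used. The median UMIs of DG were 1.42 (1.02 to 1.77) of CA1 in CON, 1.08 (0.844 to 1.50) in RES and 0.997 (0.800 to 1.36) in SUS. The geometric mean of these ratios was 1.15, with DG higher in 2 of 3 sections (exact sign-flip permutation p = 0.5). By the mean over spots, DG was above CA1 in 3 of 3 sections, with a geometric mean ratio of 1.15. With only spots whose 6 neighbours carried their own label the ratio of medians was 1.57, again higher in 3 of 3 sections, and the exact sign-flip permutation test gave p = 0.25 for both. Against CA3 the ratios of medians were 1.22 (0.815 to 1.67), 0.963 (0.615 to 1.48) and 0.810 (0.598 to 1.20). Their geometric mean was 0.984, with DG higher in 1 of 3 sections (exact sign-flip permutation p = 0.75). The spread of log2 UMIs was 0.858 of CA1 in CON, 1.09 in RES and 1.34 in SUS, with intervals that all include 1.

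The mitochondrial percentage of DG against its neighbours depended on the section and on depth. Medians gave 0.782 (0.519 to 1.31) of CA1 in CON, 1.51 (1.13 to 1.94) in RES and 1.06 (0.890 to 1.29) in SUS. The geometric mean of these ratios was 1.08, with DG higher in 2 of 3 sections (exact sign-flip permutation p = 0.75). At matched UMIs DG was above CA1 in 3 of 3 sections, with 1.16 (1.02 to 1.30) in CON, 1.51 (1.34 to 1.67) in RES and 1.12 (1.05 to 1.20) in SUS (exact sign-flip permutation p = 0.25). Against CA3 the medians gave a geometric mean ratio of 0.934, with DG higher in 1 of 3 sections (exact sign-flip permutation p = 0.75). The matched ratio to CA3 was 1.02 (0.777 to 1.16) in CON, 1.16 (1.08 to 1.29) in RES and 0.860 (0.799 to 0.939) in SUS, higher in DG in 2 of 3 sections.

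Red blood cell genes, which include the haemoglobin genes, are transcribed in the red blood cell lineage. For CON the DG median was 0.0128% (0.00904 to 0.0180), for RES 0.0778% (0.0644 to 0.108), and for SUS 0.486% (0.408 to 0.678). RES was at 6.10 times (3.59 to 11.96) and SUS at 38.1 times (22.7 to 75.02) the CON value. The CON value was that of a spot of 14588 UMIs, where such a percentage stands for few molecules, so both ratios rest on small counts. The ratios were 4.94 and 30.9 within the narrower limits and 7.14 and 37.5 within the wider ones. The same order held over all spots of the sections, at 4.65 and 18.3 times CON, and DG divided by its section stood at 1.31 for RES and 2.08 for SUS relative to CON. In the CON section 12 of 69 DG spots (17.4%, 9.32 to 28.4) were listed at 0, against 0 of 84 in RES (up to 4.30%) and 0 of 86 in SUS (up to 4.20%).

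Within SUS the red blood cell signal was uneven. Above 1% were 25 of the 86 SUS spots, 4 of the 84 RES spots and 0 of the 69 CON spots, and the highest spot had 7.49%. Of the 25 SUS spots 20 lay beside another area, against 45 of all 86 SUS spots, and the 25 formed 13 patches, the largest of 6 spots. Their median depth was 8798 UMIs against 12612 for the other 61 SUS spots. Inner SUS spots had 0.349 (0.116 to 0.781) of the border value, 0.293% against 0.842%. Over spots the percentage was lower at higher UMIs, with rho of -0.423 in CON, -0.523 in RES and -0.519 in SUS. The part of these genes in the section differences above was not tested.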

How the data were processed

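Sections were cut from the left brain at 10 μm and processed on Visium slides. By the methods of the study, the authors ran ST Pipeline against mm10 and filtered genes and spots in Seurat (at least 200 UMIs per spot), and the submitters' processing notes also name Space Ranger 1.0.0, bcl2fastq and cutadapt. The deposited UMI count of a spot and its gene count are not normalized. For the mitochondrial, ribosomal and red blood cell genes the authors deposited a percent per spot, whose gene lists and reference total the sources used here do not state.

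Spots were taken by the area label DG and joined to slide places by section and barcode. The members, limits and measures were chosen with earlier results of these data known. Medians have order-statistic intervals at the 95% level. At matched UMIs, a spot was divided by the median of the reference spots within 10% of its UMIs, and the median over spots was taken. DG was compared with CA1 and CA3 within each section and tested over the 3 sections by exact sign-flip permutation. No genes are named, because counts per gene were not analysed here. Alternatives changed the choice of spots, the quantile, the matching and the sections used, and those at other quantiles, for matched percentages, for the CA1 border and for depth with mitochondrial molecules added back were chosen after seeing the data. The interval, matching, patch and permutation steps were tested on simulated data. Calculations ran in Python 3.11.15 (pandas 2.3.3, numpy 2.4.6, scipy 1.17.1) and plots in matplotlib 3.10.9.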

Additional observations from a re-analysis of the deposited data

Results flagged for a closer look

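The red blood cell percentage of DG relative to CA3 moved in opposite directions in the CON and SUS sections. The DG median was 0.542 (0.289 to 0.947) of CA3 in CON and 1.61 (1.01 to 2.55) in SUS, which makes the SUS ratio 2.97 times the CON ratio. Both intervals exclude 1, on opposite sides. With only spots whose 6 neighbours carried their own label, the ratios of medians, a measure chosen for these spots after the data were seen, were 0.518 (0.166 to 1.21) in CON and 1.09 (0.371 to 2.16) in SUS, with both intervals including 1. The mean of the SUS spots was then lower in DG than in CA3, at 0.481% against 0.935%. With 1 section per condition the difference was not tested.

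The mitochondrial percentage of DG relative to CA3 at matched UMIs was 1.16 (1.08 to 1.29) in RES and 0.860 (0.799 to 0.939) in SUS. The RES ratio was 1.34 times the SUS ratio, with both intervals on opposite sides of 1. This difference was not tested either, for the same reason.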

How the results depend on the processing

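Of 207 alternatives to 38 results, 185 stayed within the interval or on the same side as the value reported. At the 90th percentile in place of the median, RES over CON in DG was 1.33 for UMIs and 1.10 for genes, and SUS over CON was 0.965 for the ribosomal protein percentage, while at the 10th percentile SUS over CON was 1.59 for the mitochondrial percentage. Divided by the section median, the red blood cell ratios of RES and SUS to CON were 1.31 and 2.08. Genes at matched UMIs relative to CON were 0.945 (RES) and 0.980 (SUS) in the window of 10000 to 15000 UMIs, and 0.981 (SUS) when matched within 20%. With a neighbourhood of 18 spots the inner to border ratio of the mitochondrial percentage in RES was 0.314. With only spots whose 6 neighbours carried their own label, DG over CA1 was 0.893 in place of 1.08 for the mitochondrial percentage, and DG over CA3 was 1.04 in place of 0.984 for UMIs. The red blood cell percentage of DG minus that of CA1 was then -0.0360 in place of 0.0477 percentage points, and minus that of CA3 -0.196 in place of 0.0798. The mitochondrial ratio to CA3 was 1.01 with means and 1.01 at matched UMIs, in place of 0.934. The cause of these moves was not tested.

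Leaving out a section, DG over CA1 ranged from 1.04 to 1.24 for UMIs, 1.04 to 1.14 for genes, 0.909 (without RES) to 1.26 for the mitochondrial percentage, 1.11 to 1.16 for the ribosomal protein percentage, 1.02 to 1.02 for genes at matched UMIs, and -0.0309 (without SUS) to 0.0914 points for the difference in red blood cell percentage. DG over CA3 ranged from 0.883 to 1.08 (without SUS) for UMIs, 0.959 (without CON) to 1.06 for genes (1.02 with all sections), 0.822 to 1.06 (without CON) for the mitochondrial percentage, 1.20 to 1.21 for the ribosomal protein percentage, 1.04 to 1.04 for genes at matched UMIs, and -0.0357 (without SUS) to 0.150 points for the difference in red blood cell percentage.

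No DG spot was below 1000 UMIs, so that limit changed nothing in DG. The 10th percentile of the red blood cell percentage gave no ratio, since CON is at 0 there. No paired analysis was possible because each condition has 1 section, so that conditions share no replicates to pair, while areas were compared within each section. Small percentages in shallow spots, and the red blood cell percentages of CON, rest on few UMIs. With 1 section per condition every comparison between sections is limited.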
